A study of Mus musculus with 6 samples.

Results

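The endoplasmic reticulum (ER) stress response was followed through 10 genes, chosen by symbol from the 47069 genes of a count table of mouse lung RNA. They are Atf6, Xbp1, Atf4, Ddit3, Pdia4, Pdia6, Herpud1, Manf, Creld2 and Sdf2l1, and all 10 passed the filter on low counts that kept 17037 genes for testing. Lungs were collected from 3 wild-type (WT4 to WT6) and 3 Zpbp2 knock-out (KO4 to KO6) mice at ZT10, which is 10 h after lights on in a light/dark cycle, with 1 mRNA library per mouse. KO mice were of the B6.129S7-Zpbp2tmZuk/Mmjax strain, in which the 5′ part of Zpbp2 (exons 1 to 3) is deleted on a C57BL/6J background. WT mice were C57BL/6J from the same colony, all animals were adults, and the labels used here give no sex. The comparison asks which transcripts differ in the lung when this gene, which encodes a zona pellucida binding protein, is disrupted.

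The ER folds secreted and membrane proteins, and unfolded protein in its lumen is sensed by the membrane proteins IRE1, PERK and ATF6. IRE1 splices Xbp1 mRNA, PERK slows translation and favours that of Atf4, and ATF6 is cut in the Golgi, so that 3 transcription factors (XBP1s, ATF4 and ATF6) reach the nucleus and raise genes for chaperones, disulphide isomerases and degradation of misfolded protein. In the lung, type 2 alveolar cells, secretory airway cells and plasma cells carry a heavy load of secreted protein and use this response constitutively. Total RNA counts do not separate spliced from unspliced Xbp1, and ATF6 and ATF4 are controlled largely after transcription.

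The ER stress response element (ERSE), through which ATF6 and XBP1 act with NF-Y, was searched as CCAAT, then 9 bases of any kind, then CCACG, on both strands of the promoter windows that RefSeq gives for GRCm38.p6 (250 bases before to 50 after each start). A second form, ERSE-II, was searched as ATTGG, 1 base, then CCACG. The windows of 8 members were at hand, and those of Atf6 and Manf were not analysed here. An ERSE was found in the windows of Pdia6 (at -98 from the start) and Creld2 (at -126, on the opposite strand), and an ERSE-II in that of Herpud1 (at -52). Among all 32851 promoter windows 39 held an ERSE (0.119%) and 12 an ERSE-II (0.0365%). The windows of these 3 members are shown with the element in capitals, followed by those of Hspa5 and Dnajc3, which are not members but encode BiP, an ER chaperone, and a co-chaperone of it, hold an ERSE and passed the test described below as lower in KO mice.
Pdia6: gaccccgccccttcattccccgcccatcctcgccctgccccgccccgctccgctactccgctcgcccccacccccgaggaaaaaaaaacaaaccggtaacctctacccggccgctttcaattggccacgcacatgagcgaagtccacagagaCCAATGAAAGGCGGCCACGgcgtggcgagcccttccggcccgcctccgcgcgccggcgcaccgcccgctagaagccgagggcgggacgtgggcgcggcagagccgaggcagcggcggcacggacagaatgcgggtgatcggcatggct
Creld2: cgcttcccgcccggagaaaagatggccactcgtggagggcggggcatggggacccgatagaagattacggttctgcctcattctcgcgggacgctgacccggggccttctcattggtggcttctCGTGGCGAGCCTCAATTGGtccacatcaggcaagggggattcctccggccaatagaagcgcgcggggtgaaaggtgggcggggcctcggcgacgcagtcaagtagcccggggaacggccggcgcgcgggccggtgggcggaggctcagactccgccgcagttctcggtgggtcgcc
Herpud1: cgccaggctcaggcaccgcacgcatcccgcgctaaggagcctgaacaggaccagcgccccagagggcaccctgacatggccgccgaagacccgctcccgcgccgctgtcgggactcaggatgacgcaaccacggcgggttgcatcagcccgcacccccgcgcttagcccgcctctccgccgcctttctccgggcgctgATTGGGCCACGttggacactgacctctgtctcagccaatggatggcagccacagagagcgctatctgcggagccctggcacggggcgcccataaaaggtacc
Hspa5: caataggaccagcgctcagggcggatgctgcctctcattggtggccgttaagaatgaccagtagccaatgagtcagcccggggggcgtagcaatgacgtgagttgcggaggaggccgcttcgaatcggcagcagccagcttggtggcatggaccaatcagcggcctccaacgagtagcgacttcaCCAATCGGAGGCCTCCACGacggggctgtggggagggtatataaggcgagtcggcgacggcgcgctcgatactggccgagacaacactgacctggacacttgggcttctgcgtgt
Dnajc3: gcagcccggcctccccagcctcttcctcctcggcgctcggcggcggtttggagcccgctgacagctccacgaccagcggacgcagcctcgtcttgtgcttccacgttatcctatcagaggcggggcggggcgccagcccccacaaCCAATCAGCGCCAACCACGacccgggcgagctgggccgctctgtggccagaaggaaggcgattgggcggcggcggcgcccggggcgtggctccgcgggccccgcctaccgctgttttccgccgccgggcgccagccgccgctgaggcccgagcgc
All 5 windows are on the plus strand. They span chr12:17266339-17266638 for Pdia6, chr15:88819396-88819695 for Creld2 and chr8:94386179-94386478 for Herpud1. Those of the chaperones span chr2:34771840-34772139 for Hspa5 and chr14:118937682-118937981 for Dnajc3. In Creld2 the capitals read CGTGG first, because the element lies on the opposite strand. A match of letters is a description of the window and not a measured binding site. Only exact matches were counted, so a window counted as without an element may hold a near match.

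Total counts were between 19981428 and 46796908 per library, so that 3 counts equal 0.0629 to 0.148 CPM (counts relative to the TMM-scaled library size). Zpbp2 itself had 1, 2 and 2 counts in WT lungs and 0 in each KO lung, which is too few to check the labels. The libraries WT6 and KO5 stood apart. WT6 had a summed level of 7 immediate early genes of 1290 CPM against 475 to 727 CPM in the other 5 libraries, and KO5 was the deepest library, with 8 B-cell genes at a summed 867 CPM against 205 and 245 CPM in KO4 and KO6. Results below are therefore also given without WT6 or KO5 where the call or its direction changed. In bulk lung, fewer cells of a type and less RNA per cell cannot be told apart.

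Of the 10 members, Ddit3 and Manf were lower in KO lungs, by 26.6% and 31.7% of the WT mean, and no member was higher (0 also at an unadjusted p under 0.05, in DESeq2 and in edgeR's exact test). These 2 calls (edgeR quasi-likelihood test, Benjamini-Hochberg adjusted p at most 0.05 over all genes tested) stand beside 6.39% of all tested genes called in either direction, 2.67% called lower and 3.72% called higher. DESeq2 called 11.2% of all genes and edgeR's exact test 8.72%. In the quasi-likelihood test 1.48% of all genes were called without WT4, 0.0057% without WT5 and 0.368% without WT6. The share was 7.3% without KO4, 5.48% without KO5 and 0.672% without KO6. The log2 fold change was below 0 for 9 members, with a median of -0.23 beside a median of 0.003 over all genes tested. In 4 members (Atf4, Ddit3, Pdia6 and Manf) all KO values lay below all WT values. Groups did not overlap in either direction for 32.6% of all tested genes, and KO lay wholly below WT for 15.6%. With the study's added requirement of an absolute log2 fold change of at least 1.5, which 0.64% of tested genes met, 0 members were called by edgeR or by DESeq2. At an unadjusted p under 0.05 in the edgeR quasi-likelihood test, 4 members were lower and 0 higher. Of all 17037 genes tested, 1972 were lower and 2375 higher at that level, which is also the background for the lists below.

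**Figure D1:**
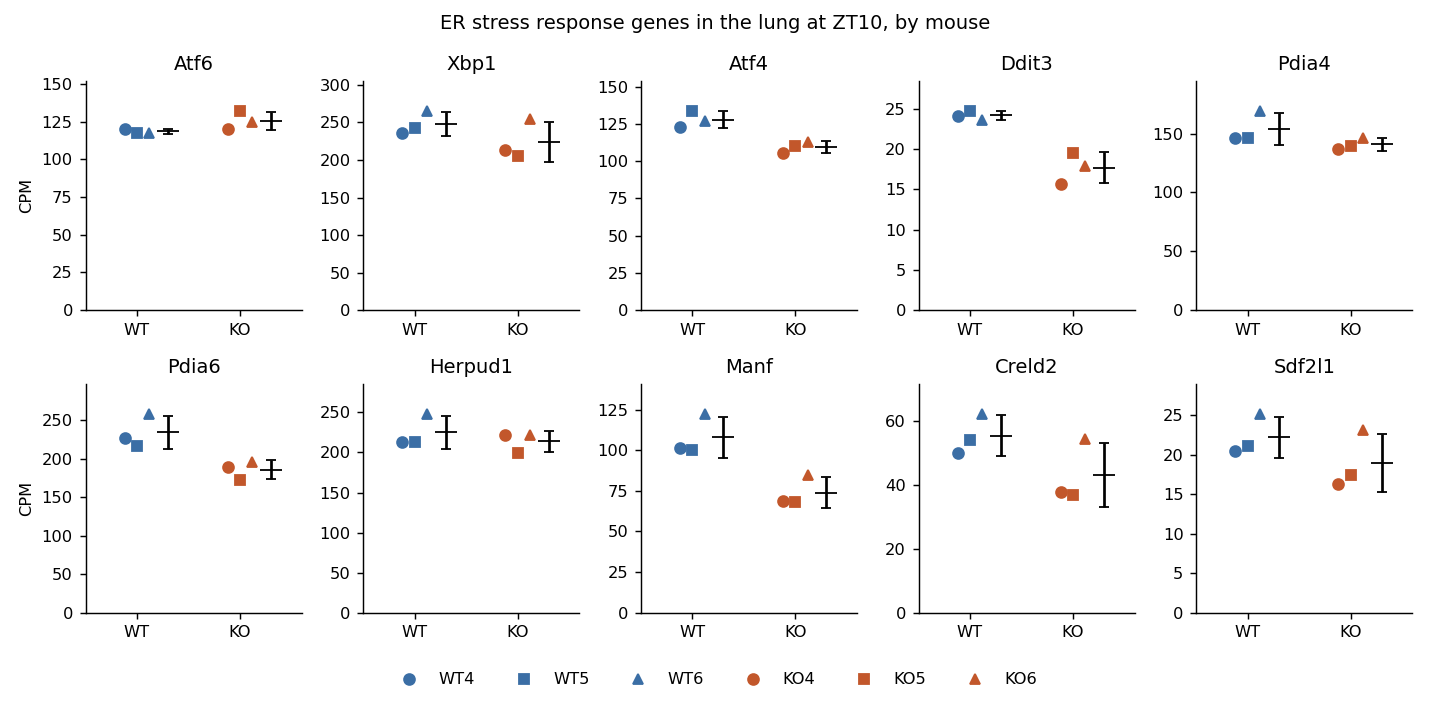
Expression of the 10 ER stress response genes in each lung, in CPM on a linear axis that starts at 0. Blue symbols are WT mice, orange symbols are KO mice, and black bars are the mean ± SD of 3 mice. All 3 KO values lie below all 3 WT values for Atf4, Ddit3, Pdia6 and Manf, and the groups overlap for the other 6 genes.

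Among the transcription factors, Ddit3 (ENSMUSG00000025408, chr10:127290774-127296288, plus strand), which encodes CHOP, the factor induced late in the PERK branch and linked to cell death, had 24.1, 24.7 and 23.6 CPM in WT4 to WT6 and 15.6, 19.5 and 17.9 CPM in KO4 to KO6. The WT lungs were close to each other, and the highest KO lung (KO5) was below the lowest WT lung. The mean fell from 24.2 ± 0.544 to 17.7 ± 1.92 CPM (SD, n = 3 mice each), a log2 fold change of -0.45 (SE 0.0909, 95% interval -0.66 to -0.23, edgeR adjusted p = 0.0380). The two-sided exact permutation test of the same difference gave p = 0.1, the smallest that 3 mice against 3 allow. The call was kept without KO4 (edgeR adjusted p = 0.0439) and without KO5 (0.0214). It was lost without WT4 (0.105), WT5 (0.153), WT6 (0.102) or KO6 (0.0944), with log2 fold changes from -0.53 to -0.37 in all 6 fits. Ddit3 shares 186 of its 1713 exonic bases with Mars, Gm4189 and another locus of the same symbol, and the strand setting of the counting is not stated, so reads there are uncertain.

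Atf4 (ENSMUSG00000042406, chr15:80255184-80257541), the effector of PERK and of the wider integrated stress response, had 123, 134 and 127 CPM in WT4 to WT6 and 105, 109.8 and 113 CPM in KO4 to KO6. Every KO lung was below every WT lung, by a narrow margin between KO6 and WT4. The means were 128 ± 5.52 and 109 ± 3.73 CPM, and the log2 fold change of -0.22 (SE 0.0534, 95% interval -0.35 to -0.10) missed the threshold with an edgeR adjusted p of 0.0537. DESeq2 called it with an adjusted p of 0.0108. It was not called by edgeR's exact test (adjusted p = 0.0665) or with the replicate number as a block (edgeR adjusted p = 0.108). It was called in 0 of the 6 fits with a mouse left out (edgeR adjusted p from 0.0810 to 0.191).

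Xbp1 (ENSMUSG00000020484, chr11:5520659-5525893), whose spliced mRNA encodes the IRE1 effector and which secretory cells need, had 235, 243 and 265 CPM in WT lungs and 214, 205 and 255 CPM in KO lungs. KO6 lay between WT5 and WT6 while KO4 and KO5 were below all WT lungs, and the log2 fold change was -0.14 (SE 0.0929, 95% interval -0.36 to 0.07, edgeR adjusted p = 0.378). The value was -0.10 without WT6, -0.09 without KO5 and -0.24 without KO6. Atf6 (ENSMUSG00000026663, chr1:170704674-170867771, minus strand), the membrane-bound sensor that becomes a transcription factor, was the single member with a log2 fold change above 0. It had 120.4, 117 and 118 CPM in WT lungs and 120.1, 132 and 125 CPM in KO lungs, with a log2 fold change of 0.09 (SE 0.0516, 95% interval -0.04 to 0.21, edgeR adjusted p = 0.348), which was 0.04 without KO5. The intervals of Xbp1 and Atf6 include 0, which does not show that either gene was unchanged.

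Manf (ENSMUSG00000032575, chr9:106838312-106891979, minus strand) encodes a secreted ER protein that binds the Hsp70 chaperone BiP and is retained in the ER until calcium falls or stress rises. It had 101, 100.3 and 123 CPM in WT4 to WT6 and 68.5, 68.4 and 84.7 CPM in KO4 to KO6. The highest lung of each group carried the number 6, and the groups did not overlap. The mean fell from 108 ± 12.6 to 73.9 ± 9.40 CPM, with a log2 fold change of -0.55 (SE 0.113, 95% interval -0.81 to -0.29, edgeR adjusted p = 0.0389). The exact permutation test gave p = 0.1, again its smallest value. No fit with a mouse left out kept the call. The edgeR adjusted p was 0.0846 without WT4, 0.121 without WT5, 0.104 without WT6, 0.0682 without KO4, 0.0647 without KO5 and 0.0563 without KO6, with log2 fold changes from -0.66 to -0.45. DESeq2 gave an adjusted p of 1.43e-04. Manf shares 326 of 3524 exonic bases with Rbm15b, Dcaf1 and 4930524O07Rik.

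Creld2 and Sdf2l1 encode further ER lumen proteins that rise early when unfolded protein accumulates, Creld2 with a part in disulphide exchange and Sdf2l1 as a partner of BiP with its ERdj3 co-chaperone. Creld2 (ENSMUSG00000023272, chr15:88819646-88826683), with an ERSE in its window, had 49.8, 54.1 and 62.2 CPM in WT lungs and 37.7, 36.8 and 54.4 CPM in KO lungs. KO4 and KO5 were far below the WT range and KO6 lay within it, so the log2 fold change of -0.37 carried a wide interval (SE 0.161, 95% interval -0.75 to 0.01, edgeR adjusted p = 0.204). Without KO6 it was -0.57 (edgeR adjusted p = 0.0653). It was weaker, at -0.28 without WT6 (edgeR adjusted p = 0.437), -0.27 without KO5 (0.356) and -0.29 without KO4 (0.354). Sdf2l1 (ENSMUSG00000022769, chr16:17130138-17132383, minus strand) had 20.4, 21.04 and 25.2 CPM in WT and 16.2, 17.5 and 23.2 CPM in KO lungs, again with KO6 within the WT range and the other KO lungs below it. Its log2 fold change was -0.23 (SE 0.150, 95% interval -0.59 to 0.12, edgeR adjusted p = 0.374), and it was -0.13 without WT6, -0.14 without KO4 and -0.40 without KO6.

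The disulphide isomerases make and rearrange disulphide bonds in the ER lumen. Pdia6 (ENSMUSG00000020571, chr12:17266545-17284770), a partner of BiP that also attenuates IRE1 signalling, had 227, 217 and 258 CPM in WT lungs and 189, 172 and 195 CPM in KO lungs. The groups did not overlap, and the mean was 234 ± 21.7 CPM in WT and 185 ± 12.3 CPM in KO lungs. The log2 fold change of -0.34 (SE 0.0830, 95% interval -0.53 to -0.14) did not pass in the edgeR quasi-likelihood test (adjusted p = 0.0586). It passed without the low-count filter (0.0325), in edgeR's exact test (adjusted p = 0.0206) and in DESeq2 (adjusted p = 0.00345). Pdia6 was called in 0 of the 6 fits with a mouse left out (edgeR adjusted p from 0.0838 to 0.144). It was also not called with the replicate number as a block (edgeR adjusted p = 0.0759). Pdia4 (ENSMUSG00000025823, chr6:47796141-47813430, minus strand), a larger isomerase of the same family, had 146.3, 146.0 and 169 CPM in WT and 137, 139 and 146.6 CPM in KO lungs, with KO6 just above WT4 and WT5 (log2 fold change -0.13, SE 0.0715, edgeR adjusted p = 0.308). Without WT6 the log2 fold change of Pdia4 was -0.06. Pdia6 shares 50 exonic bases with Atp6v1c2, and Pdia4 shares 14 with Mir704.

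Herpud1 (ENSMUSG00000031770, chr8:94386438-94395377) encodes a membrane protein that organises the degradation of misfolded ER protein, and its window held the ERSE-II. It had 213, 214 and 249 CPM in WT and 222, 199 and 221 CPM in KO lungs, so that KO4 and KO6 were above WT4 and WT5. The log2 fold change of -0.07 (SE 0.0802, 95% interval -0.26 to 0.12, edgeR adjusted p = 0.615) turned to 0.001 without WT6. It was -0.11 without WT4 or without WT5 and -0.03 without KO5.

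**Figure D2:**
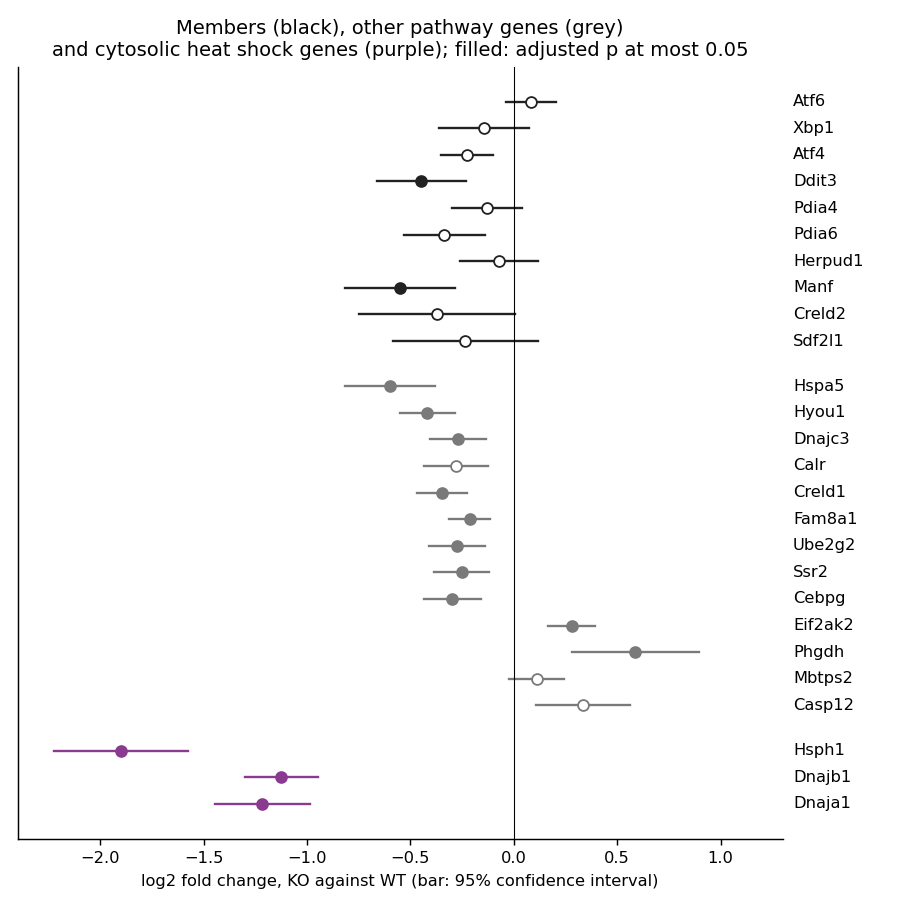
Log2 fold change of KO against WT lungs with its 95% confidence interval from edgeR, for the 10 members (black), pathway genes outside them (grey) and cytosolic heat shock genes (purple). Filled points have an adjusted p of at most 0.05. Manf and Ddit3 are the filled members, and Hsph1, Dnajb1 and Dnaja1 lie further below 0 than any member.

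The mice of a group differed in the general level of the members. The median over the 10 genes of log2 CPM minus the WT mean was -0.07 in WT4, -0.05 in WT5 and 0.14 in WT6, and it was -0.29 in KO4, -0.29 in KO5 and -0.04 in KO6. By this median KO6 lay inside the WT range and the other KO lungs outside it. By the summed level of the members every KO lung lay below every WT lung. The sums were 1260 to 1420 CPM in WT lungs and 1125, 1099 and 1236 CPM in KO4 to KO6. Without WT6 the median log2 fold change of the members was -0.18, with 0 of 10 called beside 63 of all 17136 genes tested. Without KO5 the median was -0.21, with Ddit3 the 1 member called beside 933 of all 17033 genes tested. The 7 plasma-cell genes summed to 331, 428 and 530.1 CPM in WT4 to WT6 and 655, 534 and 961 CPM in KO4 to KO6, so that they were higher in KO lungs and highest in WT6 and KO6 within a group. Of the 7, 6 had a log2 fold change above 0 and 1 below it (-0.14), and the groups overlapped for 2. The median log2 fold change was 1.48, 2 genes were called higher (Irf4 and Fcrl5), and none of the 7 was at or under 3 counts. The 2 calls were kept without KO4 or KO5, and 0 were called without WT4, WT5, WT6 or KO6, with medians from 1.09 to 1.99 in the 6 fits. Their part in the members' levels was not tested.

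Per kilobase of exon, which allows levels to be compared between genes, Herpud1 was highest in WT lungs at 96.5 ± 8.70 CPM per kb, followed by Xbp1 at 76.3 ± 4.79, Pdia4 at 64.1 ± 5.58 and Pdia6 at 62.5 ± 5.80. Atf4 (54.2 ± 2.34), Creld2 (40.5 ± 4.61) and Manf (30.6 ± 3.57) were intermediate. Sdf2l1 (20.05 ± 2.35), Ddit3 (14.1 ± 0.317) and Atf6 (12.8 ± 0.180) were lowest. Only Pdia4 and Pdia6 overlapped among neighbours in this order. In KO lungs the order was the same down to Sdf2l1, with Ddit3 (10.3 ± 1.12 CPM per kb) last and Atf6 (13.6 ± 0.653) above it. Pdia6 (49.5 ± 3.29) then overlapped Atf4 (46.4 ± 1.58), and Manf (20.96 ± 2.67) overlapped Sdf2l1 (17.1 ± 3.34). The lengths are those of all annotated exons of a gene, which can understate the level of a gene with long, rare transcripts.

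Further genes of the pathway were taken from 8 lists of 135 genes, of which 131 were tested. Of these, 8 were lower and 3 higher in KO lungs, or 8.40% called beside the 6.39% of all genes, and the median log2 fold change was -0.04. Among the lower genes were 3 ER chaperones and cofactors. Hspa5, which encodes BiP, the Hsp70 of the ER lumen and holder of the 3 sensors, had 748, 742 and 865 CPM in WT and 502, 481 and 573 CPM in KO lungs. All KO lungs were well below all WT lungs, with a log2 fold change of -0.60 (SE 0.0926, edgeR adjusted p = 0.0212). This call was lost without WT4 (edgeR adjusted p = 0.0561), WT5 (0.0976) or WT6 (0.0717). Hyou1, a larger Hsp70-type chaperone and exchange factor of BiP, had 169.7, 179 and 181 CPM in WT and 129, 127 and 139.6 CPM in KO lungs, with a log2 fold change of -0.42 (SE 0.0565, edgeR adjusted p = 0.0171). It was lost without WT5 (0.0976) or WT6 (0.0692). Dnajc3, which encodes a co-chaperone of BiP and inhibitor of PERK, fell with a log2 fold change of -0.27 (edgeR adjusted p = 0.0423) and was lost in each of the 6 fits with a mouse left out (edgeR adjusted p from 0.0643 to 0.131). In all, 3 of 13 genes of the list of ER Hsp70 and Hsp90 chaperones and cofactors were lower and none higher (1 at an unadjusted p under 0.05, 0 in DESeq2), and the median was -0.20. Over all 8 lists, the genes called numbered 1 without WT4, 0 without WT5 or WT6, 11 without KO4, 5 without KO5 and 2 without KO6, and the 8 called genes other than Hspa5, Hyou1 and Dnajc3 each kept the call in at most 2 of these 6 fits.

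Of 12 tested genes among the sensors and regulators 0 were called, 0 had an unadjusted p under 0.05, and 0 were called by DESeq2 or edgeR's exact test, with a median of -0.05. The lowest p was that of Mbtps2, the protease that makes the second cut in ATF6, with a log2 fold change of 0.11 (edgeR adjusted p = 0.279). Of 7 tested lectin chaperone genes 0 were called, 2 had an unadjusted p under 0.05 and DESeq2 called 2 and edgeR's exact test 1. Calr, which encodes the calcium-binding lectin chaperone calreticulin, was nearest with -0.28 (edgeR adjusted p = 0.0533) and did not overlap between groups. Of 18 disulphide isomerases and oxidases 1 was lower, Creld1, a paralogue of Creld2, with -0.35 (edgeR adjusted p = 0.0206) and a list median of -0.07. Creld1 had 42.8, 44.3 and 42.8 CPM in WT and 34.4, 32.9 and 34.8 CPM in KO lungs, with no overlap between the groups. At an unadjusted p under 0.05, 5 genes of this list were lower and 2 higher, DESeq2 called 3 lower and 2 higher, and edgeR's exact test called 1 in each direction. Txndc5, an isomerase abundant in plasma cells and named after its values were seen, lay higher in every KO lung (log2 fold change 0.34, edgeR adjusted p = 0.0569), with an adjusted p of 0.00301 in DESeq2 and 0.0186 in edgeR's exact test.

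Of 23 genes of ER-associated degradation 2 were lower, Fam8a1, a cofactor of the HRD1 ligase (-0.21, edgeR adjusted p = 0.0350), and Ube2g2, a ubiquitin-conjugating enzyme (-0.27, edgeR adjusted p = 0.0415), and the median was -0.04, while DESeq2 called 3 lower and 1 higher. Of 18 translocon and signal peptide genes 1 was lower, Ssr2, a subunit of the translocon-associated complex (-0.25, edgeR adjusted p = 0.0455), with a median of -0.05, while DESeq2 called 2 lower and 1 higher. The PERK-ATF4 list moved in both directions, with 1 of 34 tested genes lower, 3 higher and a median of -0.03, while DESeq2 called 2 lower and 4 higher. Cebpg, a dimer partner of ATF4, was lower (-0.30, edgeR adjusted p = 0.0350). Eif2ak2, which encodes the interferon-induced kinase PKR, was higher (0.28, edgeR adjusted p = 0.0265), and so was Phgdh, the first enzyme of serine synthesis (0.59, edgeR adjusted p = 0.0461). The third higher gene, Slc7a11, the cystine transporter subunit, is named after its values were seen, with 1.53, 1.63 and 1.52 CPM in WT and 3.76, 2.43 and 5.33 CPM in KO lungs (log2 fold change 1.28, edgeR adjusted p = 0.0491). Of 6 genes of ER stress-linked cell death 0 were called, 2 had an unadjusted p under 0.05, DESeq2 called 1 and edgeR's exact test 0. The nearest was Casp12, an ER-associated caspase of rodents, with 0.34 (edgeR adjusted p = 0.0869), and the median was 0.04.

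**Figure D3:**
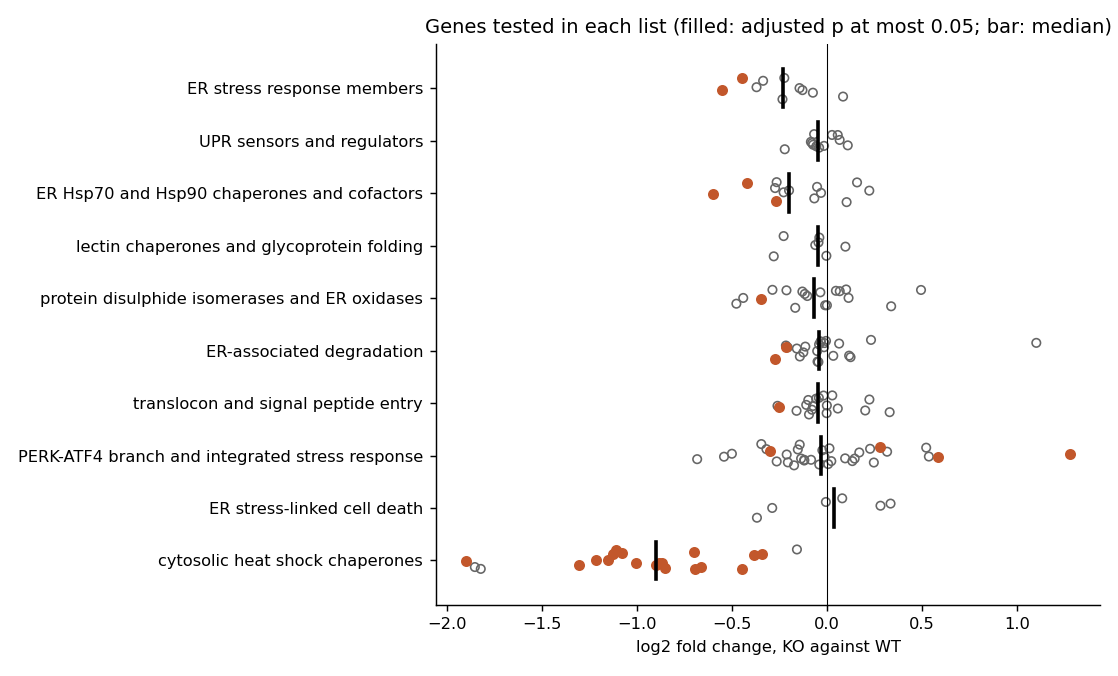
Log2 fold change of KO against WT lungs for every tested gene of each list, 1 point per gene, with a black bar at the list median. Filled orange points have an edgeR adjusted p of at most 0.05. The 10 members have a median of -0.23, the ER Hsp70 and Hsp90 chaperones -0.20, the other 7 pathway lists between -0.07 and 0.04, and the cytosolic heat shock genes -0.90.

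The cytosolic heat shock genes, which are raised by HSF1 when proteins unfold outside the ER, gave a comparison outside the ER. Their list also holds Hsf1 itself, and Hspd1 and Hspe1, which encode chaperonins of mitochondria. Of 21 genes 18 were lower in KO lungs and none higher (0 also at an unadjusted p under 0.05 and in DESeq2), with a median log2 fold change of -0.90, far below that of the members. Hsph1, an Hsp110 chaperone, had 216, 259 and 305 CPM in WT and 65.4, 64.9 and 78.9 CPM in KO lungs (log2 fold change -1.90, SE 0.139, edgeR adjusted p = 0.00466). Dnajb1 (-1.12, edgeR adjusted p = 0.00466) and Dnaja1 (-1.22, edgeR adjusted p = 0.00653), co-chaperones of Hsp70, were also lower. The list's median over genes of log2 CPM minus the WT mean was -0.16, -0.03 and 0.17 in WT4 to WT6 and -0.98, -1.04 and -0.81 in KO4 to KO6. By this median the heat shock genes separated KO6 from the WT lungs, whereas the ER members did not. By the summed level KO6 lay below every WT lung for both lists. The members summed to 1236 CPM in KO6 against at least 1260 CPM in WT lungs, and the heat shock genes to 3501 against at least 5876 CPM. Within each group the mice of the number 6 were the highest for both lists. The count of 18 was 12 without WT6 and 17 without KO5, but it was 0 without WT5, when 1 gene of all 17545 tested was called. The difference between the lists was not tested.

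**Figure D4:**
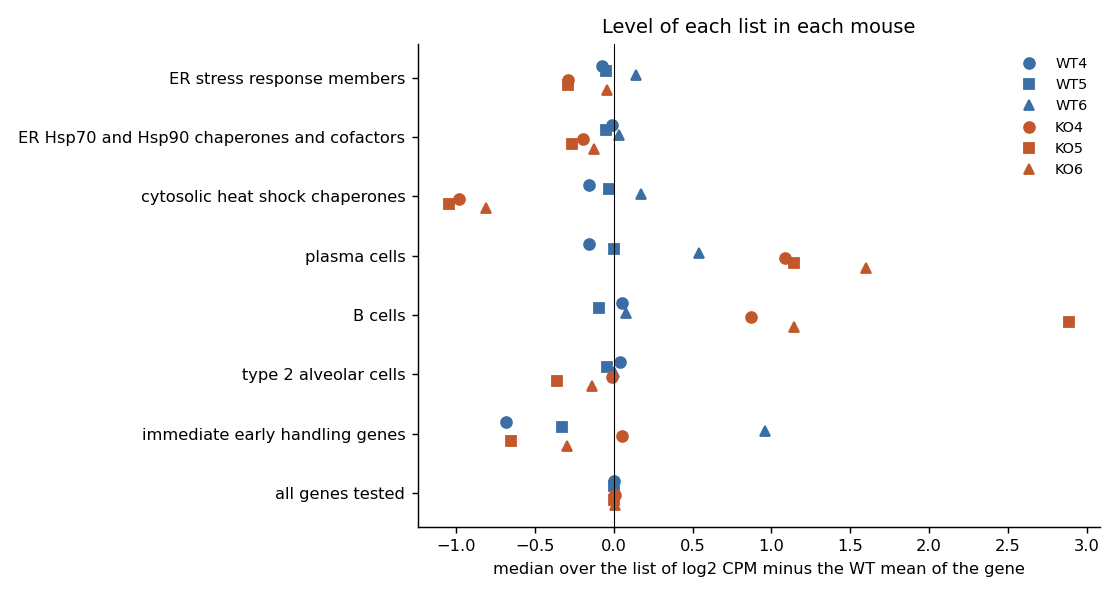
Median over each list of log2 CPM minus the gene's WT mean, with 1 symbol per mouse. For the 10 members KO6 (-0.04) lies among the WT mice while KO4 and KO5 (both -0.29) lie below them, and for the cytosolic heat shock genes the KO mice lie between -1.04 and -0.81.

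Other cell type markers also differed between the groups. Monocyte genes were higher in KO lungs for 7 of 7 (median log2 fold change 1.13). Of these 7 calls 6 stood without KO4 or KO5, 3 without WT4 or KO6 and 0 without WT5 or WT6, with medians from 0.83 to 1.34. All 8 B-cell genes lay above WT in each KO lung with a median of 1.94. None of these 8 was called by the edgeR quasi-likelihood test, 8 had an unadjusted p under 0.05, DESeq2 called 6 and edgeR's exact test 8. Without KO5 the B-cell median was 0.99 with 6 called higher, and without KO4 6 were also called. T-cell genes had a median of 0.87 with 0 of 6 called, 5 at an unadjusted p under 0.05, 4 called by DESeq2 and 1 by edgeR's exact test. They summed to 32.5 to 35.5 CPM in WT lungs and to 37.5, 98.0 and 52.2 CPM in KO4 to KO6, and their median was 0.43 without KO5, while 3 were called higher without KO4. Alveolar macrophage genes had a median of 0.24 with 1 of 7 higher (Marco), which was lost without WT5, and the median was 0.45 without WT4. Of the lung's main secretory cells, type 2 alveolar genes summed to 21627 to 24085 CPM in WT and 17336 to 22189 CPM in KO lungs (median -0.14), and club and secretory airway genes to 28668 to 37490.5 CPM in WT and 21846 to 30212 CPM in KO lungs (median -0.37). The airway list lay lowest in KO5, with a median of log2 CPM minus the WT mean of -1.71 against -0.09 in KO4, -0.10 in KO6 and -0.41 in WT4. Without KO5 the median log2 fold change was -0.15 for the airway genes and -0.05 for the type 2 genes, and without KO4 or KO6 it was -0.24 for the type 2 genes or -0.68 for the airway genes. In the type 2 and airway lists 0 of 7 and 0 of 6 genes were called by edgeR, 2 and 1 had an unadjusted p under 0.05, DESeq2 called the same numbers and edgeR's exact test 0. Medians were -0.19 for type 1 alveolar cells (1 of 6 lower, Rtkn2, 3 without KO4 and 0 without WT4, WT5 or KO6), -0.18 for fibroblasts (0 of 6 called, 2 at an unadjusted p under 0.05, 2 called by DESeq2 and 1 by the exact test; 1 called without KO4), and -0.10 for endothelial cells (1 of 6 lower, Cldn5, and 0 in each fit with a mouse left out). Markers named for a call were named after their values were seen. The immediate early genes had a median of -0.55 with 0 of 7 called, 1 at an unadjusted p under 0.05, 1 called by DESeq2 and 0 by the exact test, and the median turned to 0.32 without WT6. Xist was counted in every library, and the Y-linked genes were at or under 3 counts in every library but KO5. Xist, the 1 sex-linked gene tested, lay higher in every KO lung (log2 fold change 0.32). In the edgeR quasi-likelihood test it had an unadjusted p under 0.05 and was not called with all mice, but was called without KO4. DESeq2 and edgeR's exact test called it higher. The part of any of these lists in the members' levels was not tested.

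The elements in the promoter windows could be set beside the fold changes. Among list genes an ERSE was also found for Hspa5 (-65), Dnajc3 (-105), Hsp90b1 (-212 and -107), Calr (-162), Canx (-145), Syvn1 (-44), Derl3 (-156) and Ero1lb (-201), and an ERSE-II for Dnajb11 (8). Of the 10 list genes with an ERSE, members included, 7 had a log2 fold change below 0 and 2 were called (Hspa5 and Dnajc3), with a median of -0.27. The 10 tested ERSE genes in no list had 5 below 0, 1 called lower (Zfp57, named after its values were seen) and a median of 0.00. Members without an exact match to the ERSE in their window included Ddit3, while Herpud1 with its ERSE-II had a log2 fold change of -0.07. Near matches and sequence outside the window were not searched, so this does not show that Ddit3 lacks the element. The C/EBP-ATF response element, through which ATF4 acts, searched as TGATG, 1 base, then AA on both strands, was found in the window of Herpud1 (-112) alone among the 8 members and in 3.97% of all windows. It was found in 11 of the 29 PERK-ATF4 genes with a window.

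**Figure D5:**
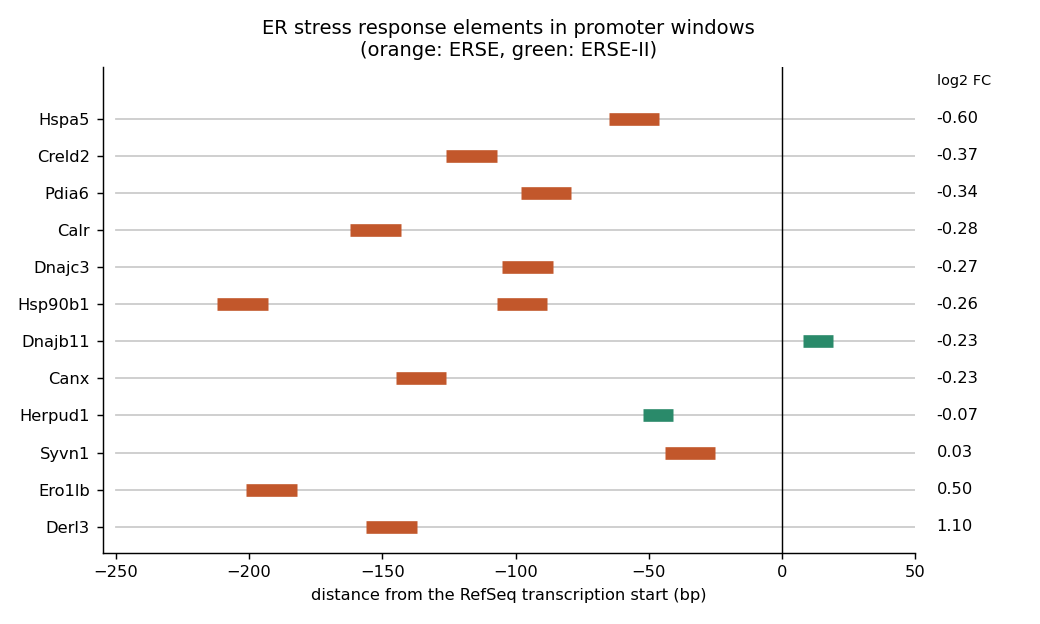
Position of the ERSE (orange) and ERSE-II (green) matches in the promoter windows of members and pathway genes, as distance in bp from the RefSeq transcription start, with the log2 fold change of KO against WT lungs at the right. Genes are ordered by fold change, from Hspa5 (-0.60) at the top through Creld2 (-0.37) and Pdia6 (-0.34) to Derl3 (1.10), which did not pass the edgeR test.

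The median profile of the members over the 6 mice, which ran only from -0.29 to 0.14, was not particular to them. By the mean absolute difference from their median log2 CPM minus the WT mean, the nearest genes outside the lists were Grk4 (0.0320), Uqcc2 (0.0339), mt-Co2 (0.0379), Gtf2e2 (0.0389) and Gnaz (0.0390), none of which passed the edgeR test (adjusted p from 0.252 to 0.478). Of the 17037 genes tested, 1160 lay within 0.1 of that profile. Because the profile is shallow beside this limit, the count does not show how common the changes of single members such as Manf are.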

How the data were processed

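Whole-number counts per Ensembl gene, without normalization, were deposited by the authors as 1 table. Per the submitters' processing notes, Trimmomatic 0.36, STAR 2.5.3a, Picard 2.9.0, HTSeq 0.6.0 and GRCm38 were used. The libraries were prepared with a stranded mRNA kit, and the annotation release and strand setting of the counting are not given in the sources used here.

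Groups follow the sample titles. KO was compared with WT in R 4.3.3 with edgeR 4.0.16 (quasi-likelihood test, TMM scaling, default filterByExpr, Benjamini-Hochberg adjustment over 17037 genes, no covariates). Intervals are 95%. P-values set the difference between the groups against the spread between these mice. CPM used TMM-scaled library sizes, and log2 CPM a prior count of 2. Positions, exon lengths and overlaps came from GENCODE mouse release 21 and promoters from RefSeq. DESeq2 1.42.0, edgeR's exact test, other scalings and filters, a replicate block and each mouse left out were alternatives, the last added for the marker lists after seeing the data. On simulated data with 17037 genes, the test of KO against WT recovered 68.4% of changes of 1 on the log2 scale, with 8.06% false calls. The members' log2 fold changes were smaller, from -0.55 to 0.09, and recovery at that size was not simulated.

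The members and lists were chosen with earlier results of these data known. Named genes were the members, up to 3 called genes with the lowest p per list (or the lowest p where none passed), and the 5 nearest to the members' profile. Python 3.11.15 made the tables.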

Additional observations from a re-analysis of the deposited data

How the results depend on the processing

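Ddit3 and Manf remained the 2 members called with DESeq2 size factors, upper-quartile factors and at least 10 counts in every library. Pdia6 joined them without a filter and in edgeR's exact test, and DESeq2 called 4 members. Over all genes, 4.89% were called without a filter, 8.72% by the exact test and 11.2% by DESeq2. With a mouse left out the members called ranged from 0 to 1, the pathway genes from 0 to 11 and the cytosolic heat shock genes from 0 to 17, and over all genes 1 (without WT5) to 1278 (without KO4) were called. The log2 fold change of Herpud1 ranged from -0.11 to 0.00109 in these fits, and the members' median from -0.31 to -0.17. The count of pathway genes called, 11, was 7 with upper-quartile factors and 26 with DESeq2. Replicate numbers did not pair the mice: same-number deviations correlated at -0.03, -0.15 and -0.02, and no mouse correlated best with its own number. With the replicate number as a block 1 member, 1 pathway gene and 11 heat shock genes were called, of 66 over all genes. The causes were not tested. Of 338 alternative values for 26 single genes, 256 kept direction and side of the threshold, 73 lost and 8 gained a call, and 1 reversed. Members had 320 to 9774 counts per library, and 3 mice per group limit the precision.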
